A study of Mus musculus with 12 samples.

Results

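The cytosolic ribosomal protein genes encode the proteins of the small and large subunits of the ribosome outside mitochondria. They were taken by name from the table of 52635 genes: symbols of Rpl or Rps followed by a number, Rplp0 to Rplp2 and Rpsa, leaving out the S6 kinase genes whose names start with Rps6k and names that contain -ps. This gave 88 genes, 52 of the large and 36 of the small subunit, of which 82 had a level of 1 FPKM (reads scaled to exon length and library depth) or more in 2 or more libraries and were tested. The other 6 were Rpl39l, Rps3a2, Rpl6l, Rpl3l, Rpl10l and Rps12l1. Rpl29 was set apart from the start because earlier results of these data had shown it to differ between the mouse lines.

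RNA was sequenced from naive CD4 T cells of C57BL/6 mice that were more than 95% pure and were stimulated for 24 h with antibodies to CD3 and CD28 in medium with charcoal-stripped serum. The cytokines in all cultures were TNFα and TGFβ1, each at 5 ng/mL, IL-23, IL-21 and IL-1β, each at 10 ng/mL, and IL-6 at 20 ng/mL, and IL-4 and IFNγ were blocked with 10 µg/mL of antibody each. The 6 groups of 2 libraries were RARα KO with 10 nM retinoic acid (RA) and with 0 nM RA, RARα TG with 10 nM and 0 nM RA, and wild type (WT) with 10 nM and 0 nM RA. The sources used here do not give the allele of the KO line, the construct and promoter of the TG line or the animals behind each library, so the p-values measure the spread between these libraries.

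Ribosomal proteins assemble on ribosomal RNA in the nucleolus, and their messages are among the most abundant of a growing cell. In mammals these messages start with a pyrimidine-rich stretch, the 5′ terminal oligopyrimidine (TOP) motif, through which mTOR and the RNA-binding protein Larp1 control their translation. A T cell that leaves quiescence builds many new ribosomes before it divides. RA binds RARα, a nuclear receptor that Rara encodes.

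Depth, worked out from the spacing of low values, was 16289969 to 25534588 reads. Rara, the gene the genotypes are named for, stood at 126 and 119 FPKM with RA and 72.8 and 63.3 FPKM without RA in the libraries labelled TG. It stood at 16.8 and 17.6 FPKM with RA and 19.5 and 19.3 FPKM without RA in the libraries labelled KO, against 12.3 and 14.2 FPKM with RA and 16.5 and 18.9 FPKM without RA in WT. The message of Rara was thus not lower in the libraries labelled KO, and values over the whole gene cannot show a deletion of one part of it. Every direction given for the KO label rests on that label alone. Xist, the transcript of the inactive X chromosome, was at 47.4 to 72.7 FPKM in the 4 libraries labelled KO and in replicate 2 of both TG groups, and at 0.00332 FPKM or less in the others. Xist thus split the KO label from WT completely. In a comparison of the KO label with WT alone, the label and Xist cannot be told apart. The summed CD4 T cell markers (Cd3d, Cd3e, Cd3g, Cd4, Cd28 and Lck, all 6 detected) ranged from 419 to 653 FPKM. The summed class II and dendritic markers were 42.9 to 165 FPKM in the 6 replicate 2 libraries and 23.7 to 32.1 FPKM in the 6 replicate 1 libraries. In bulk RNA, fewer cells of a type and less RNA per cell cannot be told apart.

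Together the 88 genes made up between 4.90 and 5.67% of each library's FPKM total. That share was 5.67 and 5.40% in the libraries labelled KO with RA and 5.53 and 5.30% in those without RA. It was 5.14 and 4.96% in TG with RA and 4.99 and 5.21% in TG without RA, against 5.56 and 5.35% in WT with RA and 5.31 and 4.90% in WT without RA. Libraries with and without RA overlapped in the KO label and in TG, while in WT both libraries with RA stood above both without. The summed FPKM of small subunit genes was 0.580 to 0.615 of that of large subunit genes in every library. The 5 most abundant genes alone carried 48.5 to 50.4% of the summed FPKM.

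**Figure D1:**
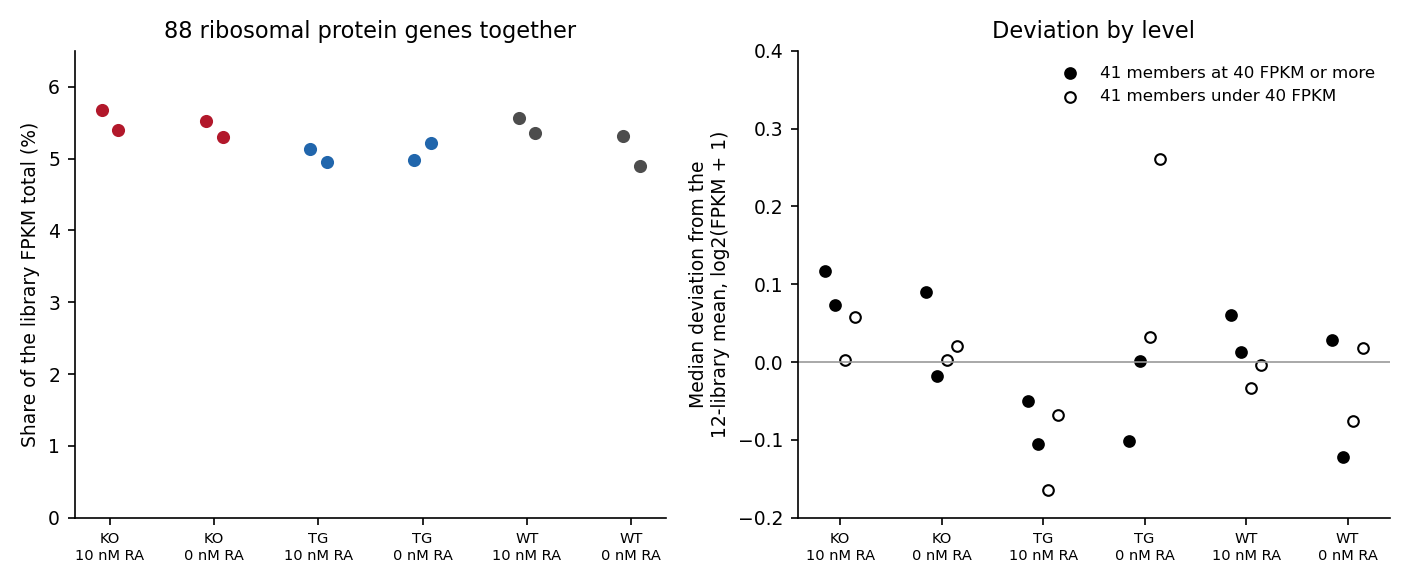
Left, share of each library's FPKM total taken by the 88 ribosomal protein genes (percent, 1 point a library); all 12 libraries lie between 4.90 and 5.67%. Right, median deviation from the 12-library mean on the log2(FPKM + 1) scale for the 41 members at 40 FPKM or more (filled) and the 41 under 40 FPKM (open); replicate 2 of TG without RA stands highest for the lower members, at 0.26.

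Levels of the single genes differed widely. Rpl8, which sits in the core of the large subunit, was highest with a mean of 1914 FPKM over the 12 libraries, followed by Rpl4 with 1710 and by the stalk protein Rplp1 with 1559 FPKM. Rplp0, which anchors the stalk that recruits elongation factors, had 975 FPKM and Rps15 had 909 FPKM. In all, 26 members had a mean of at least 100 FPKM, 34 lay between 10 and 100 and 22 of those tested were under 10, with a median of 43.2 FPKM. The lowest tested members were Rps3a3 with 0.953, Rpl38 with 1.02, Rps4l with 1.31, Rps6 with 1.47 and Rpl24 with 1.77 FPKM. Rps6 is the classic substrate of S6 kinase and a constant part of every ribosome, so levels were set beside the sequence that each gene shares with others.

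Many ribosomal protein genes have processed pseudogenes that carry the same sequence, and a read from such a stretch cannot be placed. Each coding sequence was cut into all stretches of 100 bases, the read length, and each stretch was looked for in the transcripts of every other gene of GENCODE M21 on GRCm38. In the 14 tested members with at least 80% of stretches found in no other gene, the median was 266 FPKM and the range 1.31 to 1914 FPKM. In the 34 members with under 20% of such stretches, the median was 11.7 FPKM and the range 1.02 to 93.5 FPKM. Spearman's rho between level and the share of unshared stretches was 0.70 over the 82 genes of these same libraries, as a description. The sources used here do not say how reads with several places were counted, so levels of members with shared sequence are uncertain, and levels are better compared between libraries than between members. The stretches that follow are coding bases 153 to 252 of Rpl29, which 11 other genes carry, all of them pseudogenes, and coding bases 608 to 707 of Rps6, which 7 pseudogenes carry. They are shown 5′ to 3′ in lower case because the whole stretch is what is shared.
Rpl29: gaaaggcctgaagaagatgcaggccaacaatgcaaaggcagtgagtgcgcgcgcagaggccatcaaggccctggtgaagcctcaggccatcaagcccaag
Rps6: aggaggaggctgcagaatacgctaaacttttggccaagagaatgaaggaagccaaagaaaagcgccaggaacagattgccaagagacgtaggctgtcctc

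**Figure D2:**
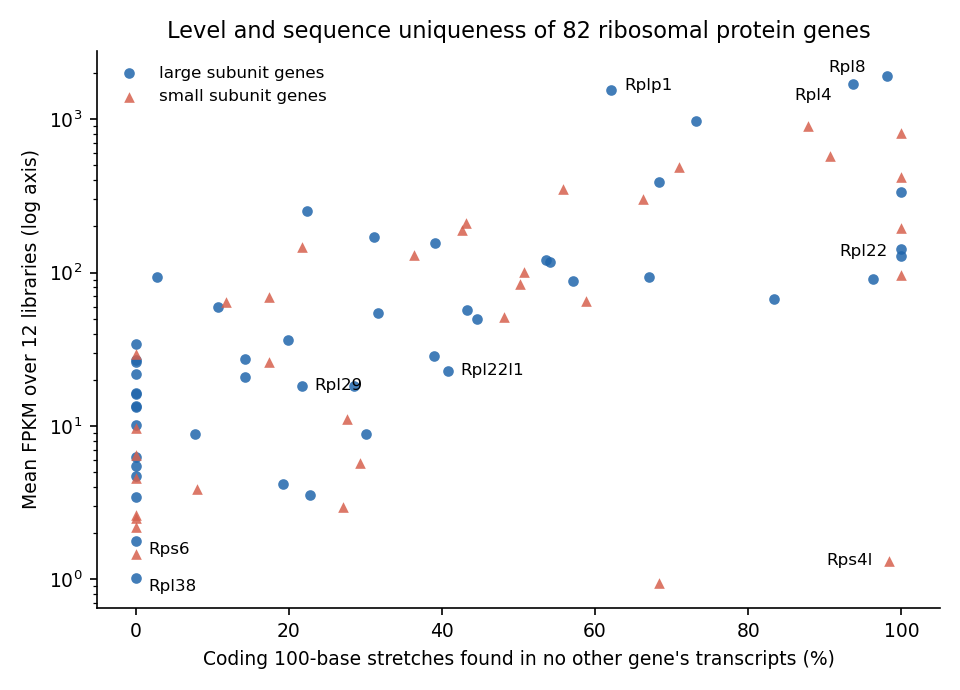
Mean FPKM over 12 libraries (log axis) of the 82 tested members against the percent of their coding stretches of 100 bases that no other gene's transcripts hold. Circles are large and triangles small subunit genes; members with under 20% unshared stretches reach at most 93.5 FPKM, while Rpl8 and Rpl4 stand near the top at over 90%.

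Single members varied little between the 12 libraries. Without Rpl29, the median coefficient of variation of the tested members was 10.8%. The highest library exceeded the lowest by less than 1.5 times in 49 members, by 1.5 to 2 times in 21 and by more than 2 times in 12. Among these 12, Rpl29 had a ratio of 19.7 and Rps4l, which GENCODE lists as a transcribed processed pseudogene, had a ratio of 5.90 on 11 to 45 reads a library. Rps3a3, Rps3a2, Rpl6l and Rps12l1 are also listed as processed pseudogenes.

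Rpl29 stood far below the other lines in the libraries labelled KO, with or without RA. Rpl29 (ENSMUSG00000048758, chromosome 9, 106429454 to 106431568, plus strand, GRCm38) encodes a large subunit protein whose loss in mice is compatible with life but slows growth. The libraries labelled KO had 1.48 and 2.54 FPKM with RA and 1.54 and 2.49 FPKM without RA, on 30 to 52 reads. TG had 29.1 and 26.4 FPKM with RA and 26.2 and 28.9 FPKM without RA, against 26.6 and 26.8 FPKM with RA and 22.6 and 24.7 FPKM without RA in WT, on 492 to 830 reads. All 4 libraries labelled KO lay below the other 8, and TG and WT overlapped with RA but not without it. The level in WT was 13.3 times that of the KO label with RA and 11.7 times without RA, as ratios of group means. Because the gene was set apart for this difference, its values are a description and no p is given. Libraries with and without RA overlapped in the KO label and in TG, and in WT both with RA lay above both without. The 2 TG libraries with Xist had 26.4 and 28.9 FPKM, close to the 29.1 and 26.2 FPKM of the 2 without it, so Rpl29 was low in only 4 of the 6 libraries with Xist.

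The copies of Rpl29 were low in all libraries. The 25 other genes that share a stretch of 100 bases with Rpl29, 23 of them pseudogenes and 24 with a value, reached at most 1.62 FPKM each in any library. Their summed level was 2.49 and 2.14 FPKM in the libraries labelled KO with RA and 1.39 and 3.98 FPKM in those without RA. In WT it was 3.45 and 4.61 FPKM with RA and 3.27 and 3.87 FPKM without RA. With RA both KO-labelled libraries lay below both WT libraries, and without RA the groups overlapped.

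The genes whose pattern over the 12 libraries was most like that of Rpl29 were Rdm1 on chromosome 11, Alg8 and Ap3s2 on chromosome 7, and Pxylp1 and Morf4l1 on chromosome 9, with Pearson correlations of 0.98 to 0.99 on the log2(FPKM + 1) scale. All 5 were lower in the 4 libraries labelled KO than in the other 8. Their choice by likeness to Rpl29 in these same libraries fixed this in advance, so it is a description. Alg8, for example, had 8.92 and 11.4 FPKM in the libraries labelled KO with RA and 9.32 and 9.58 FPKM in those without RA, against 20.3 and 22.1 FPKM with RA and 18.4 and 21.6 FPKM without RA in WT.

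Some neighbours of Rpl29 were lower in the libraries labelled KO as well. Within 1 Mb of Rpl29, 25 genes were tested. In the libraries labelled KO against WT, Parp3, Mapkapk3 and Abhd14a fell with RA at an adjusted p under 0.05 in limma, the test used throughout. Without RA, these and Rad54l2 fell. Over all genes tested, 0.411% fell in the libraries labelled KO with RA and 0.579% without RA. Abhd14b, left out of the genes named here as falling, was near the floor. The libraries labelled KO had 0.394 and 0.400 FPKM with RA and 0.195 and 0.404 FPKM without RA. WT had 2.03 and 2.02 FPKM with RA and 1.28 and 2.01 FPKM without RA. Abhd14b differed by -1.12 ± 0.14 with RA and by -1.01 ± 0.14 without RA, as log2 difference ± SE. It passed the filter only through WT and TG libraries, so these differences are a description and no p is given. Parp3, Mapkapk3 and Abhd14a fell at both doses, by 0.52 to 0.78 with RA and by 0.50 to 0.85 without RA, and Rad54l2 fell without RA, by 0.42. The cause of these differences was not tested.

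**Figure D3:**
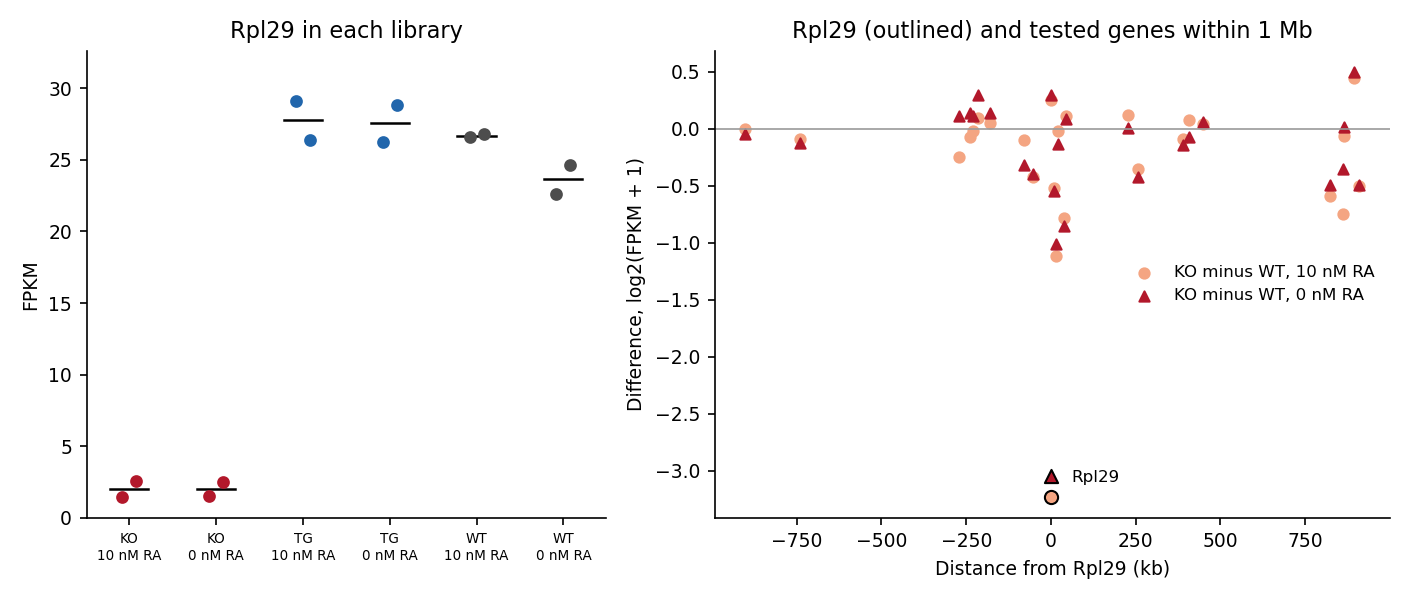
Left, FPKM of Rpl29 in each library (points, 2 a group) with the group mean (line); the 4 libraries labelled KO sit between 1.48 and 2.54 FPKM and the other 8 between 22.6 and 29.1 FPKM. Right, difference of the libraries labelled KO from WT on the log2(FPKM + 1) scale against distance from Rpl29 in kb for the 25 tested genes within 1 Mb; Abhd14b is the lowest neighbour and Rpl29 itself (outlined) lies near -3.

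With RA in TG cells, a smaller share of the ribosomal protein genes was called than of all genes, 19.5% beside 39.1%. Of the 82 tested members, 14 fell, led by Rpl22l1, 2 rose (Rpl15 and Rps26) and 66 did not pass. Over all genes, 19.7% were called higher and 19.4% lower. The members had a median difference of -0.08, beside -0.02 over all genes, and 57 of 82 values were negative. Both RA libraries lay below both others in 38 of the 82 members and above them in 15 of the 82, beside 37.6% and 33.5% of all genes. An alternative chosen after seeing the data took the replicate number as a block within each genotype. With it, 2 of the 82 members rose and 23 of the 82 fell, beside 22% and 23.1% of all genes.

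Rpl22l1 fell most. This paralog of Rpl22 can take its place in the large subunit, and Rpl22 itself is needed for the development of αβ T cells in mice. Rpl22l1 (ENSMUSG00000039221, chromosome 3, 28805436 to 28807424, plus strand) had 17.2 and 17.7 FPKM in TG with RA, against 26.8 and 31.6 FPKM in TG without RA. The 2 groups were far apart, with a difference of -0.71 ± 0.09 (limma adjusted p = 0.000349). Rps27a, which encodes ubiquitin fused to a small subunit protein, had 8.42 and 8.08 FPKM with RA and 10.9 and 14.0 FPKM without RA (-0.53 ± 0.14, limma adjusted p = 0.0174). Rps7 had 2.81 and 3.55 FPKM with RA and 4.25 and 5.54 FPKM without RA (-0.49 ± 0.15, limma adjusted p = 0.0273). Neither gene's groups overlapped, though the libraries without RA differed widely from each other. Rpl10, which in yeast joins the large subunit late in its maturation, had 13.0 and 14.97 FPKM with RA and 16.7 and 23.3 FPKM without RA, a difference of -0.47 ± 0.16 (limma adjusted p = 0.0435).

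The members that follow fell by less, between -0.47 and -0.27; Rpl7l1 and Rps27l were fixed by name and the others were named after their values were seen. Rpl12, at the base of the stalk, had 11.002 and 11.4 FPKM with RA and 14.0 and 15.4 FPKM without RA (-0.36 ± 0.06, limma adjusted p = 0.0015). Rpl9 had 6.74 and 7.47 FPKM with RA and 9.39 and 10.98 FPKM without RA (-0.46 ± 0.09, limma adjusted p = 0.00294). Rpl23a, at the exit of the peptide tunnel, had 2.88 and 3.21 FPKM with RA and 4.67 and 4.53 FPKM without RA (-0.47 ± 0.09, limma adjusted p = 0.00466). In each of these, the RA libraries lay close together and below both others. The remaining ones were Rps6 (-0.47), Rps13 (-0.44), Rps27l (-0.43), Rpl35 (-0.40), Rpl7l1 (-0.31) and Rpl41 (-0.27). Rpl36 and Rpl10a, named after their values were seen, had differences of -0.57 ± 0.22 and -0.46 ± 0.16 that did not pass (limma adjusted p = 0.0737 and 0.050034): Rpl36 was at 5.75 and 8.96 FPKM with RA and 9.91 and 12.6 FPKM without RA, and Rpl10a at 25.9 and 32.5 FPKM with RA and 34.5 and 47.1 FPKM without RA.

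Rpl15 and Rps26 rose. Rpl15, a large subunit protein, had 29.2 and 29.5 FPKM in TG with RA, against 21.6 and 24.7 FPKM in TG without RA (0.34 ± 0.08, limma adjusted p = 0.00851). Rps26, which touches the message where it leaves the small subunit, had 224 and 220 FPKM with RA and 174 and 199 FPKM without RA (0.25 ± 0.07, limma adjusted p = 0.0153). Among the most abundant members, Rpl8 had 1794 and 1741 FPKM with RA and 1798 and 1962 FPKM without RA, and Rplp0 had 928 and 875 FPKM with RA and 920 and 929 FPKM without RA. Neither passed, and Rplp1 and Rplp2 did not pass either, with differences of -0.14 ± 0.10 and -0.32 ± 0.17.

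The calls in TG depended on single libraries. Without replicate 2 of TG at 0 nM, 7 members were called, 2 higher and 5 lower, and 11 without replicate 2 of TG at 10 nM, against 16 with all libraries. In replicate 2 at 0 nM the 41 members under 40 FPKM stood 0.26 above their 12-library mean (median, log2 scale), and at 0.03 in its partner. In a split made after the values were seen, 11 of the 41 members under 40 FPKM fell, with a median of -0.29, and 3 of the 41 at 40 FPKM or more fell, with a median of -0.04. Of the 14 members that fell, 10 had under 30% unshared coding stretches, as did 42 of the 82 tested. The share was 0% in Rpl12 and Rpl23a, 7.76% in Rpl9, 40.8% in Rpl22l1 and 96.2% in Rpl7l1. FPKM counts reads over all exons, not the coding part alone. Over the longest protein-coding transcript the share was 20.0% in Rpl23a, 53.2% in Rpl12, 59.4% in Rpl22l1, 91.4% in Rpl9 and 98.3% in Rpl7l1. Rpl23a rested on 41 to 98 reads a library. No setting tried changed how reads with several places were counted. The part of library, level and shared sequence in these falls was not tested. The falls of Rpl22l1, Rpl12, Rpl9, Rpl23a and Rpl7l1 passed without any 1 of the 4 TG libraries and under every other setting tried. Leaving out replicate 2 at 0 nM ended the falls of Rps27a (-0.36), Rps7 (-0.33), Rpl10 (-0.24), Rps6 (-0.44), Rps13 (-0.41), Rps27l (-0.37), Rpl35 (-0.28) and Rpl41 (-0.28), and leaving out replicate 1 at 0 nM ended that of Rpl41 (-0.27) and the rises of Rpl15 (0.24) and Rps26 (0.16). Leaving out replicate 1 at 10 nM ended Rps27a (-0.55), Rps7 (-0.36), Rpl10 (-0.38), Rps6 (-0.38), Rps13 (-0.43) and Rps26 (0.24). Leaving out replicate 2 at 10 nM ended Rps27a (-0.50), Rpl10 (-0.57), Rps27l (-0.36), Rpl35 (-0.29), Rpl41 (-0.20) and Rps26 (0.27). Every one of these kept its sign.

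Other markers moved with RA in TG. The summed 6 B cell markers were 108 and 106 FPKM with RA and 30.3 and 32.5 FPKM without RA, nearly all of it Ighm. The summed 3 NK markers were 4.33 and 5.46 FPKM with RA and 44.4 and 50.1 FPKM without RA, nearly all of it Klrd1, with Ncr1 at 0.179 FPKM or less and Klrb1c at 0.0266 FPKM or less. The summed CD4 T cell markers were 600.0 and 543 FPKM with RA and 465 and 419 FPKM without RA. Their part in the values of the ribosomal protein genes was not tested.

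**Figure D4:**
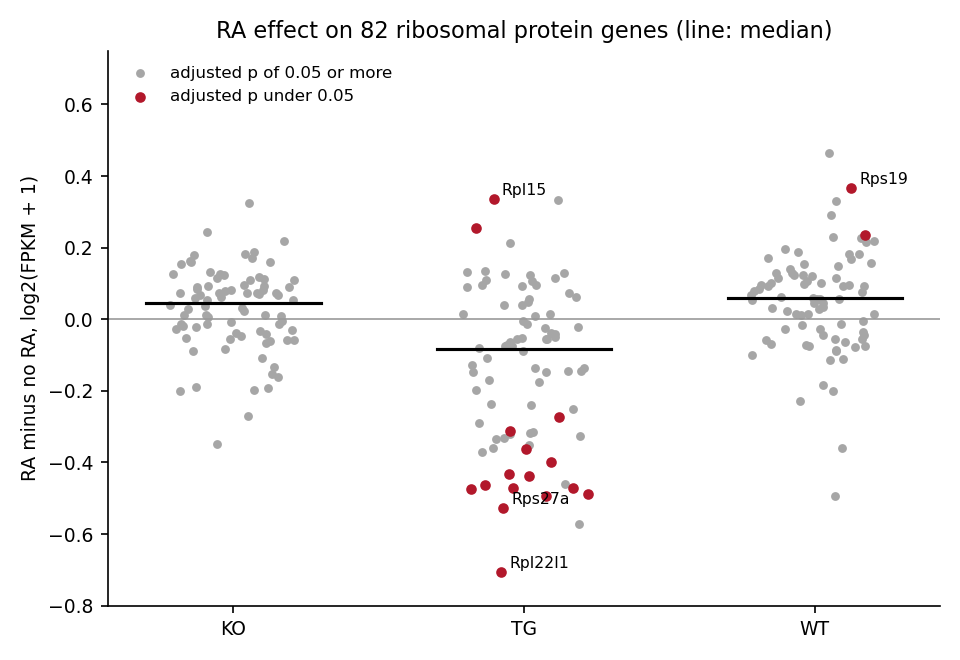
Difference with and without RA on the log2(FPKM + 1) scale for the 82 tested members (points) in the libraries labelled KO, in TG and in WT, with the median as a line and members at an adjusted p under 0.05 in red. TG has 16 red points, 14 of them below 0 with Rpl22l1 lowest at -0.71, WT has 2, and the KO label has 0.

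In WT cells, 2 of the 82 tested members (2.44%) rose with RA, 0 fell and 80 did not pass. Over all genes, 10.1% were called, 6.67% higher and 3.47% lower. Both RA libraries lay above both others in 19 of the 82 members and below them in 7 of the 82, beside 31% and 22.8% of all genes. Rps19, whose human counterpart is mutated in Diamond-Blackfan anaemia, had 71.4 and 69.1 FPKM with RA, against 57.5 and 51.1 FPKM without RA (0.37 ± 0.08, limma adjusted p = 0.0196). Rpl13 had 22.3 and 20.1 FPKM with RA and 18.3 and 17.4 FPKM without RA (0.23 ± 0.06, limma adjusted p = 0.036). Both pairs lay apart, but neither call was firm. That of Rps19 ended without replicate 2 at 0 nM (0.28) and without replicate 1 (0.34) or 2 (0.39) at 10 nM, and that of Rpl13 without replicate 1 (0.27) or 2 (0.20) at 0 nM and without replicate 1 at 10 nM (0.16). With upper-quartile scaling the call of Rpl13 also ended (0.21). With the block within genotype 4 of the 82 members rose and 1 of the 82 fell, beside 9.65% and 5.12% of all genes. At an unadjusted limma p under 0.05 there were 9 of the 82 members, beside 3077 of all 11922 genes. The median over the members was 0.06, beside 0.02 over all genes.

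In the libraries labelled KO, 0 members passed with RA, beside 0.143% of all genes called, 0.134% higher and 0.00839% lower. Both RA libraries lay above both others in 14 of the 82 members and below them in 6 of the 82, beside 24.1% and 18.2% of all genes. At an unadjusted limma p under 0.05 there were 2 of the 82 members, Rps26 and Rpl6, beside 1280 of all 11922 genes. Limma voom on recovered reads also called 0 members. Rps26 had 243 and 243 FPKM with RA, against 221 and 210 FPKM without RA, a difference of 0.17 ± 0.07 (limma adjusted p = 0.404). Rps19 had 78.2 and 71.1 FPKM with RA, against 73.3 and 66.5 FPKM without RA, and these overlapped. The median over the members was 0.05, beside 0.01 over all genes.

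The RA effect itself differed between TG and WT for 1 member, Rpl22l1, and for 7 members, all with a lower effect in TG, with the replicate number as a block within genotype. Over all genes 7.48% differed, 4.75% with a higher and 2.73% with a lower effect in TG, and with the block 11.1% did, 4.37% with a lower effect. The effect on Rpl22l1 was -0.71 ± 0.09 in TG and -0.03 ± 0.09 in WT, a difference of -0.67 ± 0.12 (limma adjusted p = 0.0143). It ended without WT replicate 2 at 0 nM (-0.58) or at 10 nM (-0.64) and without TG replicate 1 at 10 nM (-0.65). The count of members was 3 without TG replicate 1 at 0 nM, 2 without WT replicate 1 at either dose, and 0 without WT replicate 2 at 0 nM or TG replicate 1 at 10 nM. The effect was lower in TG than in WT in 66 of the 82 members, with a median of -0.19 beside -0.03 over all genes. At an unadjusted limma p under 0.05 there were 14 of the 82 members, beside 2584 of all 11922 genes. Between the KO label and WT, 0 members differed in their RA effect, beside 0.00839% of all genes with a higher effect and 0% with a lower one. An unadjusted limma p under 0.05 was reached by 3 of the 82 members (Rps9, Rpl39 and Rps19), beside 640 of all 11922 genes. By limma voom, 0 members were called.

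Between the lines, few members other than Rpl29 differed. With RA, 0 further members passed between the KO label and WT, beside 0.881% of all genes called, 0.47% higher and 0.411% lower. The KO-labelled libraries lay above WT in 21 of the 82 members and below it in 4 of the 82, Rpl29 among these 4, beside 19.6% and 17.7% of all genes. Without RA, Rpl13 was higher at 23.3 and 22.01 FPKM in the libraries labelled KO and at 23.0 and 22.9 FPKM in TG, against 18.3 and 17.4 FPKM in WT, beside 1.74% of all genes called for the KO label (1.16% higher, 0.579% lower) and 4.31% for TG (2.25% higher, 2.06% lower). Without RA, the KO-labelled libraries lay above WT in 24 of the 82 members and below it in 4, beside 27.6% and 20.1% of all genes. The TG libraries without RA lay above WT in 20 of the 82 and below it in 9, beside 26.1% and 22% of all genes. The differences were 0.32 ± 0.06 for the KO label (limma adjusted p = 0.0321) and 0.35 ± 0.06 for TG (limma adjusted p = 0.0152). Both share the WT libraries, and each call ended without any 1 of its 4 libraries, at 0.29 to 0.36 for the KO label and at 0.31 to 0.38 for TG. Xist was present in both KO-labelled libraries and in 1 of the 2 TG libraries behind these values, and its part was not tested. Rpl13 has 0% unshared coding stretches and 21.1% unshared stretches over its longest protein-coding transcript. In Rps19 the KO-labelled libraries also lay apart without RA, at 73.3 and 66.5 FPKM against 57.5 and 51.1 FPKM in WT, a difference of 0.36 ± 0.08 that did not pass (limma adjusted p = 0.0582).

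With RA, 3 members were lower in TG than in WT and 0 were higher, beside 4.64% and 6.84% of all genes and 11.5% in either direction. Rps9, a small subunit protein, had 277 and 257 FPKM in TG, against 334 and 330 FPKM in WT (-0.32 ± 0.08, limma adjusted p = 0.0346). Rpl41, the smallest ribosomal protein, had 128 and 115 FPKM in TG and 157 and 144 FPKM in WT (-0.31 ± 0.08, limma adjusted p = 0.0426). Rpl7l1 had 77.5 and 72.7 FPKM in TG and 86.1 and 90.3 FPKM in WT (-0.23 ± 0.06, limma adjusted p = 0.0404). Both TG libraries lay below both WT libraries in each. Each call ended without any 1 of the 4 libraries, at -0.37 to -0.26 for Rps9, at -0.38 to -0.23 for Rpl41 and at -0.28 to -0.18 for Rpl7l1. The median over the members was -0.10, beside -0.02 over all genes, and 66 of 82 values were negative. Both TG libraries lay below both WT libraries in 35 of the 82 members and above them in 6 of the 82, beside 29.9% and 24.5% of all genes.

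Paralogs that can stand in for a ribosomal protein were followed beside their partners. The FPKM of Rpl22l1 was 14.1 and 14.7% of that of Rpl22 in TG with RA and 23.3 and 25.3% in TG without RA. It was 15.8 and 15.5% with RA and 17.5 and 17.9% without RA in the libraries labelled KO, against 16.6 and 17.7% with RA and 18.8 and 18.04% without RA in WT. The TG libraries thus held both the lowest and the highest shares. Rpl22 itself had 122 and 120.0 FPKM in TG with RA and 115 and 125 FPKM in TG without RA, which overlapped. Without RA, Rpl22l1 was at 26.8 and 31.6 FPKM in TG, against 24.1 and 21.1 FPKM in WT, and did not pass (0.35 ± 0.09, limma adjusted p = 0.0631), nor did it with RA, at 17.2 and 17.7 FPKM in TG against 21.5 and 22.6 FPKM in WT (-0.32 ± 0.09, limma adjusted p = 0.0503).

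Rpl7l1, related to a yeast factor of large subunit assembly, fell with RA in TG to 77.5 and 72.7 FPKM, against 91.3 and 95.7 FPKM without RA (-0.31 ± 0.06, limma adjusted p = 0.00342). In WT it stood at 86.1 and 90.3 FPKM with RA and 99.9 and 101 FPKM without RA, and in the libraries labelled KO at 93.1 and 89.5 FPKM with RA and 99.4 and 90.6 FPKM without RA; neither passed. Rpl7 did not pass in TG (-0.07 ± 0.07). Rps27l, which p53 induces in human cells, had 75.4 and 67.7 FPKM in TG with RA and 92.6 and 101 FPKM in TG without RA (-0.43 ± 0.12, limma adjusted p = 0.0238), a fall that ended without replicate 2 at 0 nM (-0.37) or at 10 nM (-0.36). In WT its libraries with RA, at 82.8 and 112 FPKM, enclosed those without RA at 99.4 and 105 FPKM. Rps27l stood 28.7 to 55.2 times above its partner Rps27 on the FPKM scale, while Rps27l has 100% and Rps27 0% unshared coding stretches. Over its longest protein-coding transcript Rps27 has 42.1% unshared stretches. Rpl3l, the form of striated muscle, Rpl10l, a form of testis, and Rpl39l were near 0, with at most 0.0374, 0.0552 and 0.951 FPKM in any library. Rps12l1 was listed at 0 in all 12. The partner Rpl3 had 52.9 to 69.0 FPKM and Rpl39 48.1 to 80.4 FPKM, and Rps4x had 312 to 397 FPKM beside 0.457 to 2.69 FPKM of Rps4l. Rpsa, which also serves as a laminin receptor, had 9.52 to 12.5 FPKM in 11 libraries and 19.2 FPKM in replicate 1 of the KO label without RA.

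**Figure D5:**
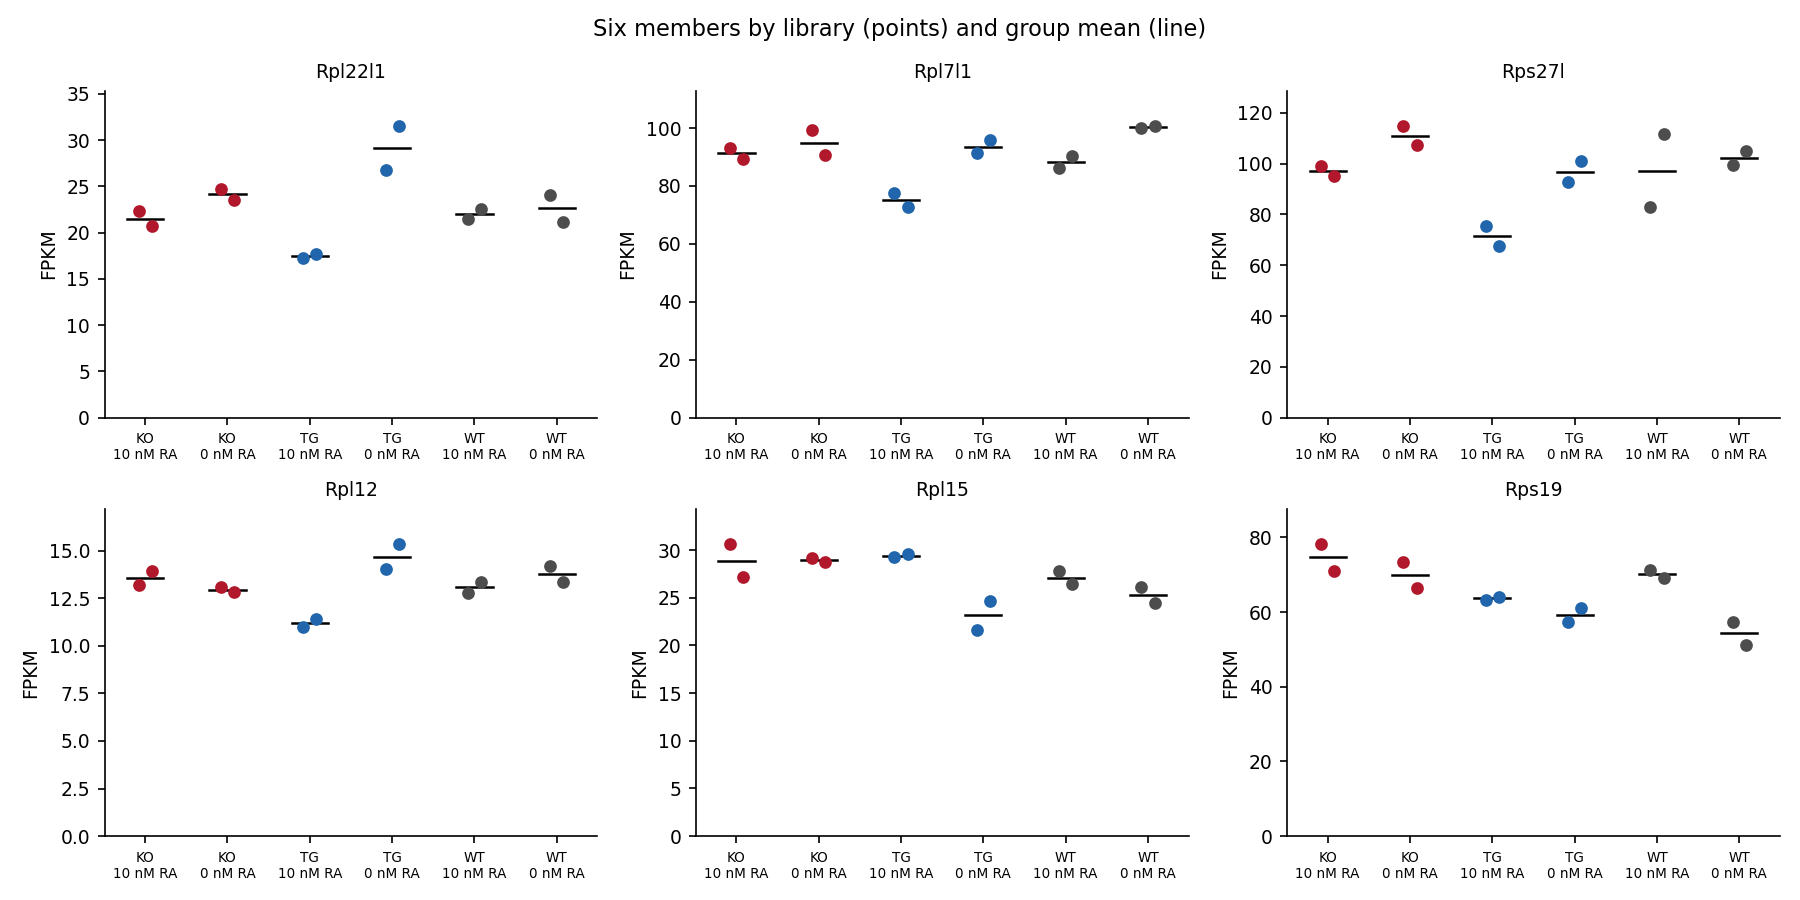
FPKM of 6 members by library (points, 2 a group) with the group mean (line). In TG, the libraries with RA lie below those without for Rpl22l1, Rpl7l1, Rps27l and Rpl12 and above them for Rpl15; in WT, Rps19 is higher with RA.

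Promoters of the members were compared by their letters. RefSeq promoters on GRCm38.p6, 250 bases before to 50 after the start, matched 63 of the 88 members. A run of at least 10 pyrimidines (C or T) on the gene's own strand, within 40 bases on either side of the start, was present in 35 of the 63 members (55.6%), beside 16.3% of all 27025 genes. On the other strand such a run was present in 12.7% of members and 17.9% of all genes. A pair of AGGTCA in the same direction with 5 bases between them is a repeat that RAR dimers are known to bind. It was found on either strand in 0 of the 63 members and in 3 of all 27025 genes. At so low a rate, 0 of 63 cannot set the members apart from all genes. Only these exact letters and this spacing were searched, so other forms of the site were not looked for. The single AGGTCA, which that repeat contains, was on either strand in 7 of 63 (11.1%) and in 18.1% of all genes. The stretches of 30 bases that follow hold the longest such run, in capitals, 5′ to 3′ on the strand of the gene, for the called members Rpl22l1 (chr3:28805499-28805528, +), Rpl9 (chr5:65391383-65391412, -), Rps6 (chr4:86857349-86857378, -), Rps7 (chr12:28635910-28635939, -), Rpl35 (chr2:39005115-39005144, -), Rpl15 (chr14:18270967-18270996, -) and Rpl13 (chr8:123102324-123102353, +), and for the abundant Rpl4 (chr9:64173361-64173390, +). They include members that fell, that rose and that did not pass with RA in TG.
Rpl22l1: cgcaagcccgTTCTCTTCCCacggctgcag
Rpl9: acgaaagacgTTCTCTCTTTgccccatcta
Rps6: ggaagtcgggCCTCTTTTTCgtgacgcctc
Rps7: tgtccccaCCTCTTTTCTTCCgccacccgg
Rpl35: gccccgCCCTTTCCTCTTTCTCTCgaacca
Rpl15: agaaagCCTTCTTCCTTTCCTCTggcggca
Rpl13: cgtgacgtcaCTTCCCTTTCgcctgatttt
Rpl4: gtgacaagTCTTTCCTTTTCCTgtgggagc

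Other genes of ribosome function, in lists chosen with earlier results known, had most of their calls with RA in TG, as did all genes together (39.1% called, 19.7% higher and 19.4% lower). Fau, which encodes a small subunit protein fused to a relative of ubiquitin, and Rack1, a scaffold on the small subunit, are not covered by the names and gave 0 calls in any of the 9 comparisons. Fau was at 2.12 and 2.32 FPKM in TG with RA, against 2.61 and 3.56 FPKM in TG without RA. Of 17 tested translation factors and related genes with TOP messages, 1 rose and 2 fell with RA in TG and 14 did not pass. Eef2, the elongation factor that moves the ribosome, had 1743 and 1698 FPKM with RA and 1458 and 1430 FPKM without RA (0.25 ± 0.07, limma adjusted p = 0.0259). Npm1, a nucleolar chaperone of ribosome assembly, had 490.2 and 470.3 FPKM with RA and 565 and 643 FPKM without RA (-0.33 ± 0.08, limma adjusted p = 0.0106), and Eef1d differed by -0.30 ± 0.07. In the other 8 comparisons 0 of the 17 passed.

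Of 16 tested genes of mTOR and TOP control, 4 rose, 8 fell and 4 did not pass with RA in TG, the comparison in which 39.1% of all genes were called. Eif4ebp2, an inhibitor of cap-dependent translation, had 74.8 and 77.4 FPKM with RA, against 57.2 and 56.9 FPKM without RA (0.41 ± 0.05, limma adjusted p = 0.000483). Larp1, which holds back TOP messages, had 54.0 and 53.1 FPKM with RA and 64.1 and 61.9 FPKM without RA (-0.23 ± 0.04, limma adjusted p = 0.00253). Myc, an activator of ribosome production, had 156 and 160.0 FPKM with RA and 198 and 206 FPKM without RA (-0.35 ± 0.07, limma adjusted p = 0.00538). Larp1 also fell with RA in WT, to 52.9 and 55.0 FPKM, against 60.7 and 60.6 FPKM without RA (-0.17 ± 0.04, limma adjusted p = 0.0388). With RA, Eif4ebp2 and Larp4 were higher in TG than in WT, by 0.24 ± 0.05 and 0.22 ± 0.05. Of 11 subunits and factors of RNA polymerase I, which makes ribosomal RNA, 0 rose and 5 fell with RA in TG, and Polr1b had 22.7 and 23.1 FPKM with RA and 31.8 and 32.9 FPKM without RA (-0.48 ± 0.06, limma adjusted p = 0.000235). A list of 13 tested genes mixed chaperones and importers of ribosomal proteins and genes of the p53 pathway with others (Aar2, Nacc1 and Rrp1b). Of these 13, 0 rose and 6 fell with RA in TG, among them Ipo7 (-0.33 ± 0.07), which imports ribosomal proteins, and Heatr3 (-0.32 ± 0.06). Against WT with RA, Cdkn1a, a target of p53, was lower in TG with 23.2 ± 0.662 FPKM, against 57.5 ± 21.3 FPKM in WT (SD, n = 2 each; -1.22 ± 0.24, limma adjusted p = 0.0138).

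The ribosomal proteins of mitochondria, which come from other genes, also fell in part with RA in TG. Of 76 tested, 2 rose and 26 fell with RA in TG, with a median of -0.17, beside -0.08 for the 82 cytosolic members and with 19.7% of all genes called higher and 19.4% lower. These counts were not tested against each other. Mrps6 rose to 116 and 114 FPKM with RA in TG, against 65.8 and 65.5 FPKM without RA (0.80 ± 0.07, limma adjusted p = 4.58e-05), and Mrpl38 differed by -0.58 ± 0.09 (limma adjusted p = 0.0014). In WT, 0 of the 76 rose with RA and 1 fell, and in the libraries labelled KO 0 passed.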

How the data were processed

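The authors deposited 1 table of FPKM values for 52635 genes and 12 libraries. GRCm38.p5 and mm10 are the builds, and HTSeq 0.6.1, STAR, Trimmomatic 0.32 and DESeq2 the tools, per the submitters' processing notes, which state no roles here. The sources used here give neither strand setting, annotation release nor the treatment of reads with several places. GENCODE M21 (GRCm38) supplied positions and exon lengths. FPKM times exon length took steps of 1 read, and 95.3 to 95.9% of values up to 20 reads lay within 0.02 of a whole number. Reads are not independent molecules, so depth limits counting error only.

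The 11922 genes that reached 1 FPKM in 2 or more libraries were tested with limma 3.58.1 in R 4.3.3 on log2(FPKM + 1) with 1 mean for each of 6 groups and a trend in eBayes. Differences are on that scale, which understates changes of low genes. Two-sided tests were corrected per comparison (9 in all) by the Benjamini-Hochberg method, and a gene with an adjusted p under 0.05 is called. The code was tested on reads simulated for RA in WT with a fixed spread. It called 7 of 67 genes changed 1.5 times, 39 of 67 changed 2 times and 65 of 66 changed 4 times. In the same run it called 16 unchanged genes. A small difference that did not pass is thus not shown to be absent. Tables and figures were made with Python 3.11.15, numpy 2.4.6, pandas 2.3.3 and matplotlib 3.10.9.

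The members, the gene lists and the alternatives were chosen with earlier results of these data known. Named were Rpl29, the stalk proteins, Rpsa, Rps27a and the paralogs with their partners, the 5 largest called rises and falls of each comparison whose groups did not overlap with a mean of at least 2 FPKM in a group, the 5 highest and 5 lowest tested members, and up to 4 genes of each list by p. Alternatives were a pseudocount of 0.1, no filter, upper-quartile scaling, only the libraries compared, the replicate number as a block, leaving out each library, and limma voom (11910 genes) on reads recovered from FPKM, exon length and depth. After seeing the data, a replicate block within each genotype was added for the RA comparisons. Values with a library left out are given for members only. A few genes and their values are left unreported here.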

Additional observations from a re-analysis of the deposited data

Results flagged for a closer look

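The response of Rpl22l1 to RA differed between TG and WT by a test of the difference itself. The effect was -0.71 ± 0.09 in TG and -0.03 ± 0.09 in WT, a difference of -0.67 ± 0.12 on the log2(FPKM + 1) scale (limma adjusted p = 0.0143). Both TG libraries with RA (17.2 and 17.7 FPKM) lay below both TG libraries without RA (26.8 and 31.6 FPKM), while WT stood at 21.5 and 22.6 FPKM with RA and 24.1 and 21.1 FPKM without RA. The call ended without WT replicate 2 at 0 nM (-0.58) or 10 nM (-0.64) or TG replicate 1 at 10 nM (-0.65).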

How the results depend on the processing

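Leaving out Rpl29, which was chosen for its difference, 263 repeats of the other 24 member calls were made under other settings or without 1 of the libraries compared; 185 passed again, 78 did not and 0 changed sign. The 5 calls that passed in all were Rpl12, Rpl22l1, Rpl23a, Rpl7l1 and Rpl9 for RA in TG. None of the settings changed how reads with several places were counted. Counts for the KO label include Rpl29 and are a description in its part. Without the filter, counts became 1 for RA in WT (2 with it), 10 for RA in TG (16 with it) and 0 for TG against WT with RA (3 with it). With upper-quartile scaling they became 1 for RA in WT and 6 for TG against WT with RA. With only the libraries compared they became 0 for RA in WT, 1 for the KO label without RA (2 otherwise), 0 for TG without RA (1 otherwise), 0 for TG with RA and 2 for the difference of RA effects between TG and WT (1 otherwise). Voom called 2 for TG without RA. Same-numbered libraries correlated at 0.0035 to 0.33 in their deviations from the group means over 15 pairs of groups, and at 0.15 in TG, 0.32 in the KO label and 0.33 in WT between the doses. Between genotypes the correlation reached 0.21 (WT and the KO label, both without RA), above the 0.15 within TG. For TG the correlations thus do not show that numbers pair libraries within a genotype and not across genotypes. The block within genotype is an assumption, made after a hint from the data and not from the labels. The block within genotype gave 5 for RA in WT, 25 for RA in TG and 7 for the difference of RA effects, and 0 for RA in the KO label. A replicate block shared by all genotypes gave 21 for RA in TG, 4 for the KO label without RA, 2 for TG without RA, 5 for TG with RA and 4 for the difference of RA effects. With 1 library left out, counts ranged from 0 to 2 for RA in WT, 7 to 18 for RA in TG, 1 to 2 for the KO label without RA, 0 to 1 for TG without RA, 0 to 1 for TG with RA and 0 to 3 for the difference of RA effects. Leaving out a library of a pair assumes that the lone one varies like the other groups. The cause of these shifts was not tested. Members under 10 FPKM rest on few reads, as Rps6 does with 29 to 87.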
